A study of Rattus norvegicus with 18 samples.

Results

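A set of 9 genes of the interferon response was followed in the brains of 2 rat strains, WHP and WLP, that had been selected for high and low ethanol preference. The 9 genes were Irf1, Irf7, Irf9, Stat2, Mx1, Mx2, Ifit2, Isg15 and Ifi27, and every probe carrying one of these names was taken, which gave 10 of the 41012 probes on the array (2 for Ifit2, 1 for each of the others). All 10 matched their gene through the RefSeq accession in the scanner files. RNA of WHP and WLP males was hybridised together on 18 dual-colour arrays, covering the nucleus accumbens (a reward area of the ventral striatum), the prefrontal medial cortex and the hippocampus. Every rat was alcohol-naive, and no genotype other than the strain and no age is given in the labels. Each area had 3 pool pairs, a pool being total RNA of 3 rats of one strain. Each pool pair was hybridised on 2 arrays with the dyes exchanged. Values are log2 ratios of WHP over WLP per pool pair, so a negative value means less signal in WHP. Whether one set of rats gave all 3 areas is not stated in the labels.

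Type I interferons bind a receptor that activates the kinases JAK1 and TYK2, which phosphorylate STAT2. STAT2 and IRF9 are parts of a complex that binds the interferon-stimulated response element (ISRE) in the promoters of antiviral genes, while interferon-gamma acts through the gamma-activated site (GAS), as in Irf1. IRF7 is itself interferon-induced and amplifies interferon production, and the Mx proteins, IFIT2, ISG15 and IFI27 are induced effectors. In the brain microglia, astrocytes, endothelial cells and neurons can all respond, and in bulk tissue fewer cells of a type cannot be told apart from less RNA per cell.

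The results turn on the probes of Mx2, Irf7 and Ifi27, whose 60-base sequences are shown with those of Mx1, the close relative of Mx2, and of the 2 Ifit2 probes, which differed in detection. All letters are in lower case because no base is singled out.
Mx2: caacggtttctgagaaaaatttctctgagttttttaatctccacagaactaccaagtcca
Mx1: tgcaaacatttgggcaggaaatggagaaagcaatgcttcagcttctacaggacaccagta
Irf7: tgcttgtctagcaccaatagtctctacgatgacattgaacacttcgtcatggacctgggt
Ifi27: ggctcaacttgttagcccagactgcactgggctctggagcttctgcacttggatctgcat
Ifit2 A_44_P410016: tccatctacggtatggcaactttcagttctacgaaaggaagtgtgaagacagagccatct
Ifit2 A_44_P696994: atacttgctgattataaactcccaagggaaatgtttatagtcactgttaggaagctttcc
By the scanner files' coordinates (rn4), the Mx2 probe lay at chr11:37568920-37570815 on the plus strand, a span of 1896 bases for 60 bases of probe. The Mx1 probe lay at chr11:37439631-37439690 on the minus strand, 129.23 kb away. The Irf7 probe was at chr1:201456889-201456948 (minus strand) and the Ifi27 probe at chr6:127727107-127727166 (plus strand). The Ifit2 probes were at chr1:238563700-238563759 and chr1:238565078-238565137, both on the plus strand. Exon and UTR positions were not analysed here.

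A promoter, 250 bases before to 50 bases after the gene's start, was held in the RefSeq table (GRCr8) for 6 of the 9 genes: Irf1, Irf7, Irf9, Stat2, Mx1 and Ifi27. A pair of motifs was searched on both strands, the ISRE as GAAANNGAAA and the GAS as TTCNNNGAA. The promoters of Irf7 (chr1:205799974-205800273, minus strand) and Ifi27 (chr6:128355062-128355361, plus strand) are printed because these genes were higher in WHP in the mean of the areas and are the 2 with an ISRE match, which is in capitals.
Irf7 promoter: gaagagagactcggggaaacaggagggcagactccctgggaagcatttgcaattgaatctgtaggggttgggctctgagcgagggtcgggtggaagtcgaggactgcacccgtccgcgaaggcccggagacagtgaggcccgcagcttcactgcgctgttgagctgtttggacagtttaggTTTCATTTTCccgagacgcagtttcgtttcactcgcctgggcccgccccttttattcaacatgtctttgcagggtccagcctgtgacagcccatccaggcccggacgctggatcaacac
Ifi27 promoter: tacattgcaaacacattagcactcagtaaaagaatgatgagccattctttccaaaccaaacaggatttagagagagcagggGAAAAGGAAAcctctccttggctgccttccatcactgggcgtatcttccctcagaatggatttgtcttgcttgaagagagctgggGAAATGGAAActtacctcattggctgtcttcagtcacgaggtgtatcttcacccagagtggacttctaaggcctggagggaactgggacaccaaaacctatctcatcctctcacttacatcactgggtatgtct
Irf7 held 1 match, TTTCATTTTC, the motif's reverse strand, at position -69 from the start. Ifi27 held 2, GAAAAGGAAA at -169 and GAAATGGAAA at -84. Of all 33469 promoters of the same length, 3.92% held an ISRE match and 8.87% a GAS match. A GAS match was found in Irf1 (TTCCCCGAA at -142) and in Irf9 (TTCTAGGAA at -99), and neither motif in Stat2 or Mx1. These matches describe the letters and were not tested as binding sites.

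Some arrays stood apart. The ratios of the 2 dye-swapped arrays correlated at 0.04 in nucleus accumbens pool pair 3 and at -0.00 in hippocampus pool pair 2, against 0.30 to 0.70 in the other pool pairs. The first array of prefrontal pool pair 1 had a 75th percentile of 9.77 (log2 signal), against 9.04 to 9.12 on the other prefrontal arrays. On that array and on the first array of hippocampus pool pair 3 the median level of undetected probes was raised, to -0.80 against -3.13 to -3.05 on the other prefrontal arrays and to -2.17 against -4.15 to -3.69 on the other hippocampus arrays (log2 relative to the array's 75th percentile). Results that rest on these 2 arrays are also given without them, an alternative chosen after seeing the data, in which these 2 pool pairs rest on 1 dye orientation each. The hippocampus arrays were scanned in a second session on slides of their own, so area and session cannot be told apart for them. Striatal marker genes were as bright in the prefrontal samples as in the nucleus accumbens samples (median level 1.04 ± 0.39 and 1.04 ± 0.61, SD, n = 3 pool pairs each, log2 relative to the array's 75th percentile), and at -1.57 ± 0.36 in the hippocampus. Cortical markers were at 0.21 ± 0.14 in the prefrontal samples and at -1.22 ± 0.07 in the nucleus accumbens. The striatal markers also differed between the strains' pools. Their median ratio of WHP over WLP was -0.39 in the nucleus accumbens, where 11 of 12 were negative and 1 passed as lower. It was -0.03 in the prefrontal cortex (8 of 12 negative) and -0.35 in the hippocampus (10 of 11 negative). The part of this difference in the members' ratios was not tested.

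In all, 8 of the 10 probes were well above background on all 6 arrays of both strains in every area, and none was saturated. Mx1, a nuclear antiviral GTPase in the rat, was not well above background except on 1 WHP channel in the hippocampus. The Ifit2 probe A_44_P410016 was above background in 2 of 6 WHP and 1 of 6 WLP channels of the nucleus accumbens, in 1 WHP channel of the prefrontal cortex and in none of the hippocampus. Neither probe was tested. Over the 8 tested probes, 1 passed the test in the nucleus accumbens, 0 in the prefrontal medial cortex and 1 in the hippocampus (limma, Benjamini-Hochberg adjusted p under 0.05), against 0.252%, 0.0905% and 0.25% of all probes tested there. An unadjusted p under 0.05 was found for 3 of the 8 in each area, against 16.3%, 8.45% and 6.68% of all probes in the nucleus accumbens, prefrontal cortex and hippocampus. In the mean of the 3 areas 3 of the 8 passed, Mx2 lower and Irf7 and Ifi27 higher in WHP, against 2.85% of all probes.

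**Figure D1:**
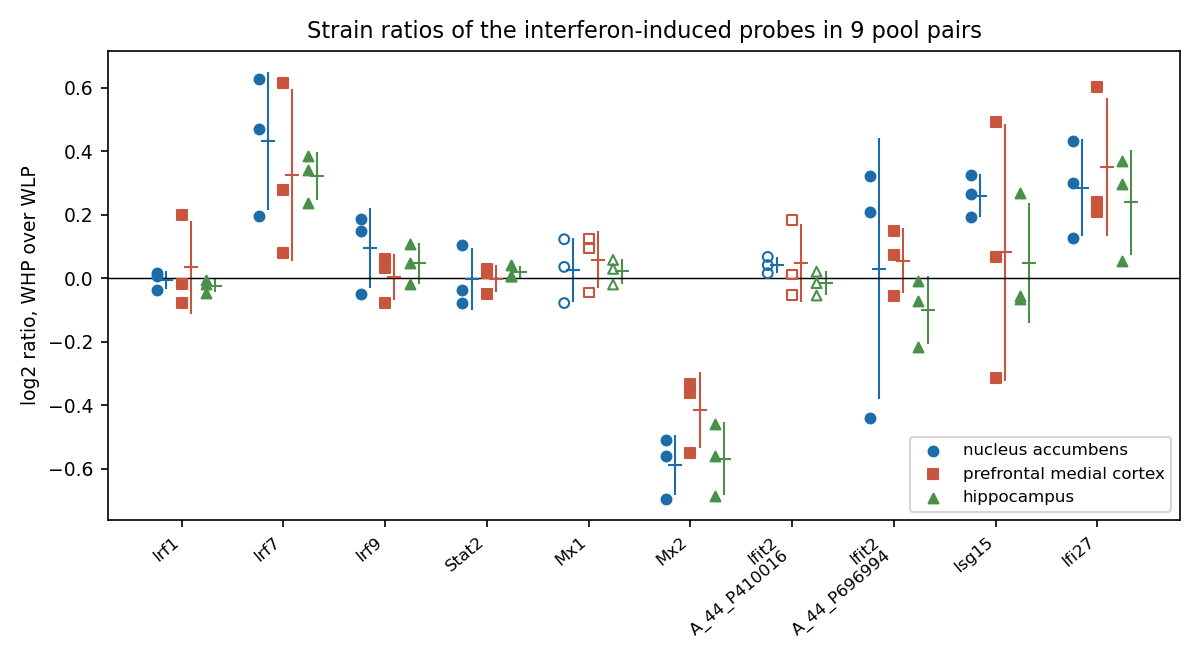
The vertical axis gives the log2 ratio of WHP over WLP, with 1 point per pool pair, grouped by probe and coloured by area (3 pool pairs each); the bars beside the points are the mean ± SD, and open symbols mark the 2 probes not well above background. All 9 Mx2 points lie below 0, between -0.69 and -0.33, and all 9 points of Irf7 and of Ifi27 lie above 0.

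Mx2, a cytoplasmic antiviral GTPase of the dynamin family in the rat, gave less signal in WHP in all 9 pool pairs. In the nucleus accumbens the ratios were -0.56, -0.51 and -0.69 in pool pairs 1 to 3, in the prefrontal medial cortex -0.33, -0.36 and -0.55, and in the hippocampus -0.69, -0.56 and -0.46. It was negative on 18 of 18 arrays, from -0.84 to -0.08, in both dye orientations. The value nearest 0, -0.08, came from the prefrontal array with raised background, and the hippocampus array with raised background gave -0.34. The fitted ratio was -0.59 ± 0.06 (SE, n = 3 pool pairs) in the nucleus accumbens, a 1.50-fold lower signal with a limma adjusted p of 0.0121. It was -0.57 ± 0.06 in the hippocampus, 1.48-fold lower (limma adjusted p = 0.0121). In the prefrontal medial cortex it was -0.41 ± 0.06 and did not pass (limma adjusted p = 0.0758), and without prefrontal pool pair 1 it was -0.46 (limma adjusted p = 0.105). Leaving out only the 2 arrays with raised background, it was -0.50 in the prefrontal cortex and passed (limma adjusted p = 0.0197), and -0.61 in the hippocampus (limma adjusted p = 0.00821). Over the 3 areas the mean was -0.52 ± 0.04 (95% interval -0.60 to -0.44), 1.44-fold lower, with a limma adjusted p of 0.000366.

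The ratio of Mx2 did not pass a test of difference between areas. The nucleus accumbens minus prefrontal difference was -0.17 (95% interval -0.37 to 0.02, limma adjusted p = 1.00, unadjusted p = 0.0789). For all 8 tested members no contrast between areas had an unadjusted p under 0.05, and over the whole array 0 probes passed limma's adjusted threshold, with 948 of 28502, 2574 of 29842 and 1029 of 28588 probes under an unadjusted 0.05 in the 3 contrasts. The limma call in the nucleus accumbens was lost without its pool pair 3 (adjusted p = 0.0738), and that in the hippocampus without pool pair 1, 2 or 3 (limma adjusted p = 0.112, 0.118 and 0.0600), while the mean call passed without any single pool pair. With trend and robust variances the mean call of Mx2 was lost (limma adjusted p = 0.156). With the scanner's own processed signals Mx2 was at -1.16 in the nucleus accumbens, -0.93 in the prefrontal cortex and -1.13 in the hippocampus. The authors' deposited table gave -0.97, -0.64 and -0.77. An offset, here 50 in the background correction, draws ratios of dim probes towards 0. It was not varied alone, and its part in these differences was not tested.

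The channel levels of Mx2 show the same values per strain. In the nucleus accumbens the 6 WHP channels lay between -2.39 and -2.09 (log2 relative to the array's 75th percentile). The 6 WLP channels lay between -1.83 and -1.40. In the prefrontal cortex the ranges were -2.18 to -0.66 for WHP and -1.76 to -0.58 for WLP, and in the hippocampus -3.00 to -1.82 and -2.59 to -1.48. WHP was the lower channel on each array. Without the 2 arrays with raised background WHP lay at -2.18 to -2.05 and WLP at -1.76 to -1.51 in the prefrontal cortex. In the hippocampus WHP then lay at -3.00 to -2.83 and WLP at -2.59 to -2.13. The 6 channels of a strain read 3 pools on 2 dye-swapped arrays each. How often the ranges of the strains lie apart over all probes was not counted.

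**Figure D2:**
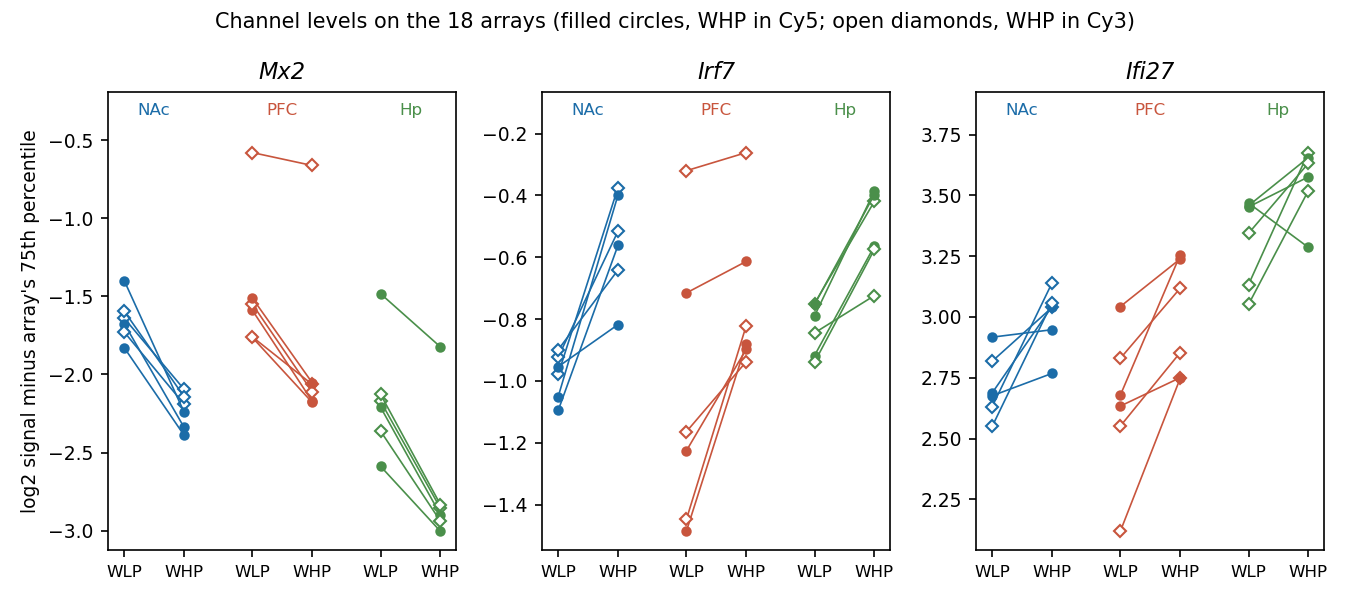
The vertical axes give the log2 signal minus the array's 75th percentile in the WLP and WHP channels of Mx2, Irf7 and Ifi27, with 1 line per array (18 arrays; NAc, nucleus accumbens; PFC, prefrontal medial cortex; Hp, hippocampus) and the dye of WHP shown by the symbol. Mx2 falls from WLP to WHP on 18 of 18 arrays, Irf7 rises on 18 of 18 and Ifi27 on 17 of 18; the prefrontal array with raised background lies above the other prefrontal arrays for Mx2 and Irf7, and the hippocampus array with raised background above the other hippocampus arrays for Mx2.

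Irf7, the transcription factor that amplifies interferon production, was higher in WHP in all 9 pool pairs. The ratios were 0.63, 0.47 and 0.20 in the nucleus accumbens, 0.08, 0.62 and 0.28 in the prefrontal cortex and 0.34, 0.24 and 0.38 in the hippocampus. All 18 arrays were positive, from 0.06 to 0.65. No single area passed: the fitted ratios were 0.43 ± 0.10, 0.32 ± 0.10 and 0.32 ± 0.10 (SE, n = 3 pool pairs each), with limma adjusted p of 0.140, 0.443 and 0.516. The mean over the areas was 0.36 ± 0.06 (95% interval 0.22 to 0.50), 1.28-fold higher, with a limma adjusted p of 0.0203. In the nucleus accumbens the WHP channels of Irf7 lay at -0.82 to -0.37 and the WLP channels at -1.10 to -0.90. In the hippocampus they lay at -0.72 to -0.39 and at -0.94 to -0.75. The prefrontal ranges overlapped (-0.94 to -0.26 and -1.49 to -0.32), also without the array with raised background (-0.94 to -0.61 and -1.49 to -0.72). The mean call was lost without prefrontal pool pair 3 or hippocampus pool pair 1, 2 or 3 (limma adjusted p = 0.0677, 0.0714, 0.0517 and 0.0717), and without the 2 pool pairs with uncorrelated dye swaps (ratio 0.41, limma adjusted p = 0.0534). It was lost too with trend and robust variances (limma adjusted p = 0.168) and with the pool pair number as a block (limma adjusted p = 0.0554).

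The other transcription factors of the set stayed near 0. Irf1, an early interferon-gamma target, ranged from -0.08 to 0.20 over the 9 pool pairs, with a mean ratio of 0.00 ± 0.03 (95% interval -0.07 to 0.07, limma adjusted p = 0.979). Stat2, a subunit of the ISRE-binding complex, ranged from -0.08 to 0.11, with a mean of 0.00 ± 0.02 (interval -0.05 to 0.06, limma adjusted p = 0.940). Irf9, the complex's DNA-binding subunit, was positive in 6 of 9 pool pairs, with a mean of 0.05 ± 0.03 (interval -0.02 to 0.12, limma adjusted p = 0.452).

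Among the effectors Ifi27, which encodes a small hydrophobic protein, was higher in WHP in all 9 pool pairs. Its ratios were 0.13, 0.43 and 0.30 in the nucleus accumbens, 0.60, 0.21 and 0.24 in the prefrontal cortex and 0.37, 0.30 and 0.05 in the hippocampus. The area fits of 0.29 ± 0.09, 0.35 ± 0.09 and 0.24 ± 0.09 did not pass (limma adjusted p = 0.217, 0.325 and 0.664). The mean of 0.29 ± 0.05 (95% interval 0.17 to 0.42), 1.22-fold higher, passed with a limma adjusted p of 0.0288. Of the 18 arrays 17 were positive, and the negative one, at -0.18, was the hippocampus array with raised background. Without the 2 arrays with raised background the mean was 0.32 (limma adjusted p = 0.0104). The size moved with the dye: the mean ratio was 0.17 where Cy5 marked WHP (limma adjusted p = 0.152) and 0.42 where Cy3 did, and in the hippocampus 0.05 and 0.43. The mean call was also lost without nucleus accumbens pool pair 2 or 3, prefrontal pool pair 3 or hippocampus pool pair 1 or 2, with limma adjusted p from 0.0551 to 0.0960. With the scanner's processed signals, or with the pool pair number as a block, the mean call of Ifi27 was lost as well. So it was with trend and robust variances, and without the pool pairs with uncorrelated dye swaps. For comparison, 3.45% of the 28377 probes detected in all areas had one sign in all 9 pool pairs, as Mx2, Irf7 and Ifi27 did.

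Isg15, a ubiquitin-like protein that is attached to other proteins, was positive in 3 of 3 nucleus accumbens pool pairs (0.19, 0.32 and 0.27). In the prefrontal cortex it spread from -0.32 to 0.49, and in the hippocampus it was 0.27, -0.06 and -0.05. The nucleus accumbens fit was 0.26 ± 0.13 (limma adjusted p = 0.361) and the mean 0.13 ± 0.08 (95% interval -0.04 to 0.30, limma adjusted p = 0.405). Ifit2, an RNA-binding antiviral protein, was read by its brighter probe A_44_P696994 at -0.44, 0.32 and 0.21 in the nucleus accumbens, at -0.05, 0.07 and 0.15 in the prefrontal cortex and at -0.01, -0.07 and -0.22 in the hippocampus. Its mean was -0.00 ± 0.07 (interval -0.17 to 0.16, limma adjusted p = 0.982). The dim Ifit2 probe (pool-pair ratios from -0.05 to 0.18) and the dim Mx1 probe (-0.08 to 0.12) were read near background, and these ratios carry no level for either strain.

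The level of each member over both strains was compared between areas with limma, and 7 of the 24 member contrasts passed, all of them against the hippocampus. Of all probes 11.8% passed for the nucleus accumbens against the prefrontal cortex, 34.5% for the nucleus accumbens against the hippocampus and 35.2% for the prefrontal cortex against the hippocampus. Each contrast held 8 member probes. Irf9, Ifi27 and Stat2 passed in both contrasts against the hippocampus, and Mx2 in that of the prefrontal cortex. Calls against the hippocampus were common over the whole array and are not particular to the members. Irf9 was highest in the hippocampus, at -0.27 ± 0.04 (SD, n = 3 pool pairs, log2 relative to the 75th percentile), followed by the prefrontal cortex at -1.03 ± 0.20 and the nucleus accumbens at -1.30 ± 0.07. It was 2.05-fold higher in the hippocampus than in the nucleus accumbens (limma adjusted p = 0.000341) and 1.70-fold higher than in the prefrontal cortex (0.00198). Ifi27 was at 3.44 ± 0.04 in the hippocampus, 2.86 ± 0.07 in the nucleus accumbens and 2.82 ± 0.21 in the prefrontal cortex, 1.50-fold and 1.54-fold higher in the hippocampus (limma adjusted p = 0.00647 and 0.00548).

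Stat2 and Mx2 ran the other way. Stat2 was at -2.96 ± 0.33 in the hippocampus, against -2.12 ± 0.08 in the nucleus accumbens (limma adjusted p = 0.0299) and -2.04 ± 0.49 in the prefrontal cortex (limma adjusted p = 0.0215). Mx2 was at -2.44 ± 0.26 in the hippocampus, lower than in the prefrontal cortex at -1.67 ± 0.37 (limma adjusted p = 0.0172), while its nucleus accumbens level of -1.94 ± 0.10 passed against neither. Probes not well above background were also lower in the hippocampus on this scale. Their array medians had a mean of -3.65 there, -3.04 in the nucleus accumbens and -2.70 in the prefrontal cortex. These means include the arrays with raised background, at -2.17 in the hippocampus and -0.80 in the prefrontal cortex. The part of this shift in the Stat2 and Mx2 levels was not tested. In the main setting Irf1, Irf7, Ifit2 and Isg15 did not pass in any contrast. Irf7 was at -0.77 ± 0.06, -0.90 ± 0.37 and -0.67 ± 0.09 in the nucleus accumbens, prefrontal cortex and hippocampus. Its prefrontal pool pair 1, which holds the array with raised background, was at -0.48, against -1.16 and -1.06 in pool pairs 2 and 3. The Stat2 difference from the nucleus accumbens no longer passed without nucleus accumbens pool pair 1, 2 or 3 or hippocampus pool pair 1 or 2 (limma adjusted p from 0.0736 to 0.112). The prefrontal differences of Stat2 and Mx2 no longer passed without hippocampus pool pair 1 or 2 (limma adjusted p of 0.0805 and 0.0879 for Stat2, 0.0667 and 0.0746 for Mx2). Leaving out prefrontal pool pair 1, which holds an array with raised background, gave 14 calls in place of 7, and leaving out hippocampus pool pair 1 or 2 gave 4. Without the 2 arrays with raised background 17 of the 24 passed, among them the 7 above. With 3 contrasts per gene, Irf9, Stat2, Mx2 and Ifi27 cannot make up all 17. Some contrasts of Irf1, Irf7, Ifit2 or Isg15 therefore passed there.

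Further genes of the pathway were taken as 5 lists, each gene by its brightest detected probe, and no listed gene passed limma's adjusted threshold in any single area. By any detected probe, 10 of 76 genes had an unadjusted p under 0.05 in the nucleus accumbens, 1 of 74 in the prefrontal cortex and 9 of 78 in the hippocampus, set against the shares of all probes given above (16.3%, 8.45% and 6.68%). In the mean of the areas 1 of 73 genes passed limma's adjusted threshold, against 2.85% of all probes. An unadjusted p under 0.05 was found there for 17 of 73 genes, against 17.8% of all probes. These counts are of genes, while the shares are of probes. The gene that passed was Ccl5, a chemokine that attracts T cells, which was higher in WHP. Ccl5 was at 0.51, 0.39 and 0.48 in the nucleus accumbens, at -0.01, 0.11 and 0.49 in the prefrontal cortex and at 0.38, 0.25 and -0.01 in the hippocampus. Its mean was 0.29 ± 0.06 (limma adjusted p = 0.0372), a call held under 6 of 19 alternatives. Of the other antiviral effectors 24 of 32 measured genes had positive ratios in the nucleus accumbens, 18 of 32 in the prefrontal cortex and 27 of 34 in the hippocampus, with medians of 0.12, 0.01 and 0.08. Antigen-processing genes and chemokines had positive ratios in 10 of 13, 7 of 12 and 11 of 13, with medians of 0.13, 0.03 and 0.15. Genes of a list share the same pools and are not replicates. By pool pair the effector medians were 0.07, 0.18 and -0.02 in the nucleus accumbens, -0.15, 0.11 and 0.06 in the prefrontal cortex and 0.20, 0.03 and 0.02 in the hippocampus. Those of antigen-processing genes and chemokines were 0.11, 0.22 and -0.04, then -0.22, 0.22 and 0.12, then 0.27, 0.09 and 0.09. The medians of all probes tested were 0.00, 0.00 and -0.00. Interferon receptors, kinases and inhibitors had medians of -0.03, -0.00 and -0.03, the other transcription factors -0.01, -0.03 and -0.02, and the nucleic acid sensors -0.02, -0.01 and 0.02.

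Markers of meninges and fibroblasts, which also surround the sampled areas, differed between the strains' pools. All 10 were measured, and their median ratio was positive in 6 pool pairs and negative in 3, from -1.18 to 2.75. In the 3 negative pool pairs (nucleus accumbens 3, prefrontal 1 and prefrontal 2) Irf7 was at 0.20, 0.08 and 0.62, Ifi27 at 0.30, 0.60 and 0.21 and Mx2 at -0.69, -0.33 and -0.36. All 10 were detected in each area, with a median level of 0.87 to 2.42 in the WHP and -0.29 to 1.95 in the WLP pools of the nucleus accumbens. The ranges were 0.16 to 1.27 and 0.07 to 1.79 in the prefrontal cortex, and 1.14 to 2.00 and 0.74 to 1.29 in the hippocampus. The median ratio of 13 microglia markers lay between -0.30 and 0.12, that of 10 endothelial markers between -0.20 and 0.29 and that of 9 astrocyte markers between -0.28 and 0.05. In the mean of the areas 9 of 13 microglia and 8 of 9 astrocyte genes were negative by their brightest probe. Positive there were 10 of 10 meninges and fibroblast genes (median 0.54) and 7 of 7 choroid plexus and ependyma genes (median 0.35). So were 5 of 9 endothelial and 2 of 5 blood cell genes in that mean. There 2 of 16 microglia probes, 1 of 16 astrocyte probes and 0 of 11 endothelial probes passed limma's adjusted threshold, against 2.85% of all probes. Of the meninges and fibroblast probes 0 of 13 passed, and of the choroid plexus and ependyma probes 0 of 8. Choroid plexus and ependyma markers ranged from -0.28 to 1.71 and blood cell markers from -0.22 to 0.21. The part of these cell types in the sizes of the members' ratios was not tested.

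**Figure D3:**
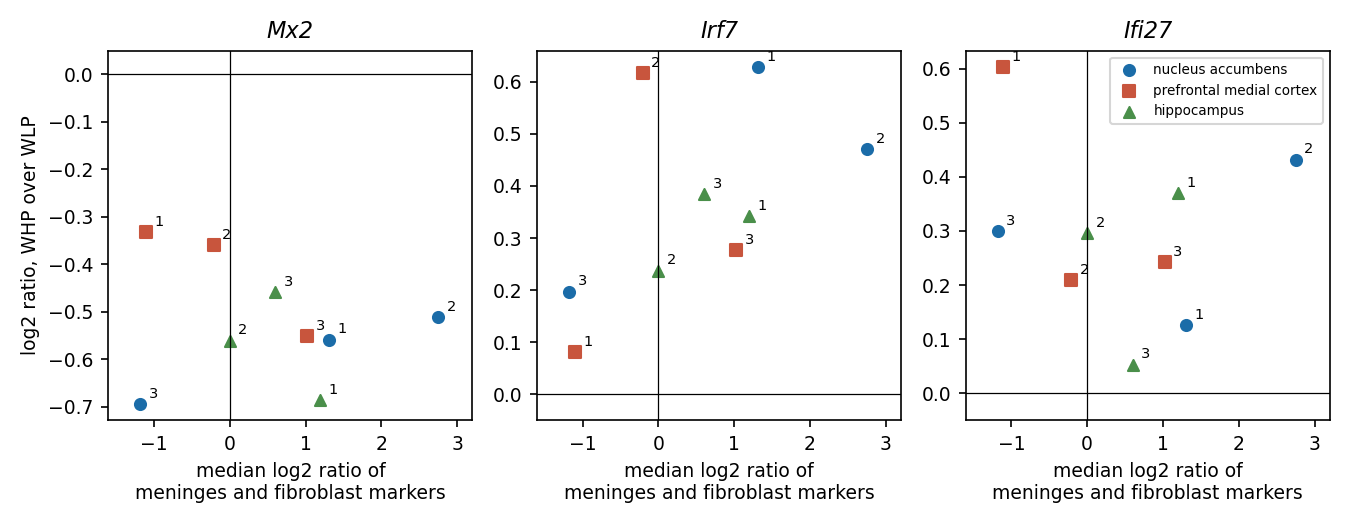
The horizontal axes give the median log2 ratio (WHP over WLP) of 10 meninges and fibroblast markers and the vertical axes the log2 ratio of Mx2, Irf7 or Ifi27, with 1 point per pool pair, numbered within its area. The marker medians run from -1.18 to 2.75, the Mx2 ratios from -0.69 to -0.33, the Irf7 ratios from 0.08 to 0.63 and the Ifi27 ratios from 0.05 to 0.60.

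Around Mx2 the array held 15 probes within 500 kb, of which 12 were detected in at least 1 area, and Mx2 was the 1 that passed a test. Mx1, Fam3b and Tmprss2, whose probe was the nearest at 8.27 kb, were not detected. Bace2, a protease at -141 kb on the Mx1 side, had ratios of 0.08, -0.10 and -0.04 in the nucleus accumbens, prefrontal cortex and hippocampus. Ripk4, a kinase gene detected in the hippocampus alone, was at 0.04 there. In the 3 areas C2cd2 was at 0.10, -0.03 and -0.08 and Zbtb21, a zinc finger gene, at 0.06, -0.03 and -0.08. An unnamed transcript chosen after its values were seen, TC626141, at 127 kb had the largest of the other ratios, 0.29, 0.35 and 0.21 (limma adjusted p for the mean = 0.0998).

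**Figure D4:**
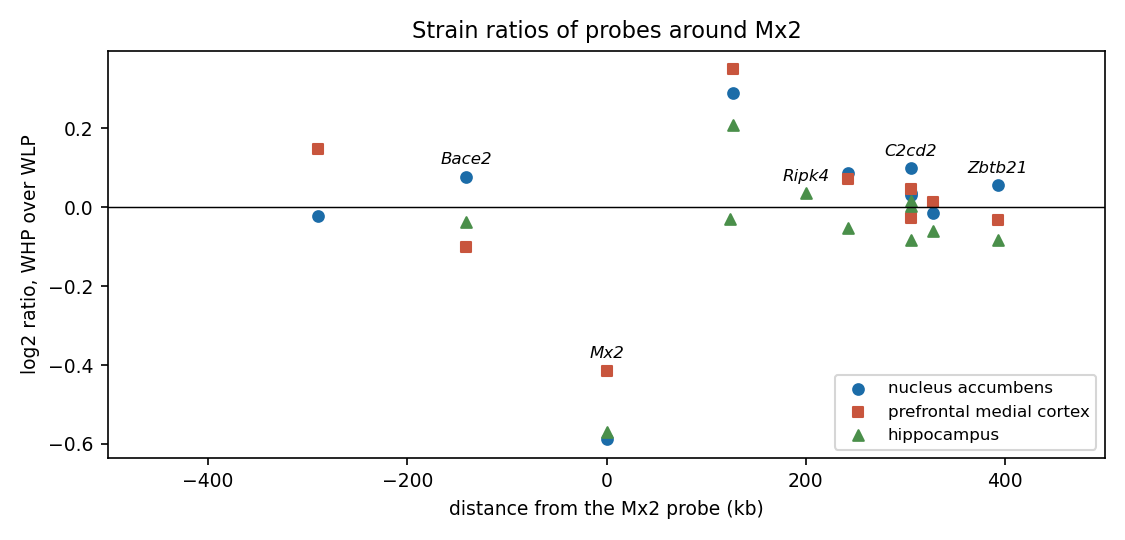
The vertical axis gives the fitted log2 ratio of WHP over WLP per area for probes detected in that area, and the horizontal axis the distance from the Mx2 probe in kb, with named genes labelled. The 3 Mx2 points, at -0.59, -0.41 and -0.57, lie below all other probes in the window.

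Elsewhere on the array, the named genes whose 9 pool-pair ratios lay nearest to those of Mx2 were Bspry, Mrpl52, Fkbp4, Ino80e and Ppp4r2, with root mean square differences of 0.16 to 0.21 over 16705 probes compared. Bspry, the nearest, had a mean ratio of -0.46 and lay on chromosome 5. Nearest to Irf7 were Pik3c3, Adgrg2, RT1-M3-1, Plce1 and Fkbp7, at 0.16 to 0.18. Of these Pik3c3, a lipid kinase gene, was positive in every pool pair (0.15 to 0.41), and none of the 5 is another member of the set.

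Across the processing alternatives the mean ratio of Mx2 kept its sign, from -1.07 to -0.49, and passed in 18 of 19, all but trend and robust variances. The mean ratio of Irf7 ran from 0.31 to 0.47 and passed in 12 of 19, and that of Ifi27 from 0.17 to 0.42 and passed in 9 of 19. Mx2 in the prefrontal cortex passed in 3 of 21, those using no background subtraction, the processed signals of the scanner or no array with raised background.

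**Figure D5:**
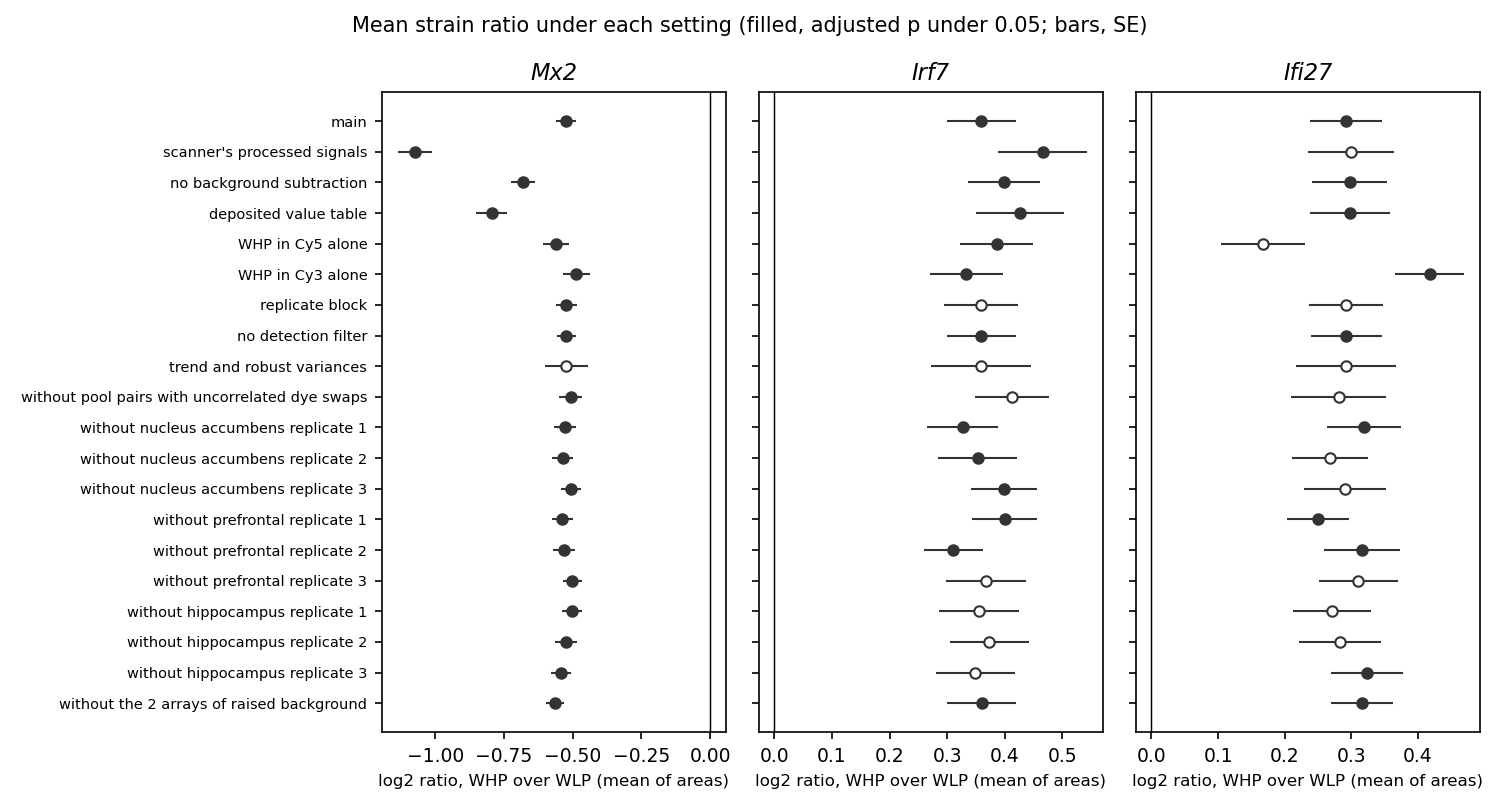
Each row is 1 way of processing or 1 set of arrays left out, and the horizontal axes give the mean log2 ratio (WHP over WLP) of the 3 areas with its SE; filled points passed limma's adjusted threshold and open points did not. Mx2 is open in 1 of its 19 alternatives, Irf7 in 7 and Ifi27 in 10, and no value crosses 0.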

How the data were processed

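The authors deposited the scanner output of 18 dual-colour Agilent arrays (Feature Extraction 10.10.1.1, per the file headers), with mean and background intensity per spot and the scanner's processed intensity, and a table of log2 ratios whose normalization is not given in the sources used here. That deposited log2 table correlated with the scanner's WHP over WLP ratio at 0.39 to 0.84 per array, with array medians from -0.01 to 0.02, so its direction is WHP over WLP; its centring is unknown. Intensities were corrected with normexp (offset 50) and normalised by loess in limma 3.58.1 (R 4.3.3). Controls and non-uniform spots were left out. Replicate spots were averaged, then both dye orientations of each pool pair, which left 9 values per probe. One limma model with a coefficient per area (6 residual and 2.46 prior degrees of freedom) gave two-sided tests, adjusted by Benjamini-Hochberg over all detected probes, threshold 0.05. A probe was detected if well above background in a strain's channel on at least 4 of its 6 arrays. The level is the mean log2 of both channels minus the array's 75th percentile. The number of arrays limits the precision, and p-values measure the spread between pools. The code was tested on simulated data. Members, lists and tests were chosen with earlier results of these data known. Named genes are the 9 members, listed genes past the test, the 5 nearest profiles of Mx2 and Irf7, and named genes within 500 kb of Mx2. Alternatives changed background correction, source table, dye, detection filter, variance model, blocks and the pool pairs kept. One more, leaving out the 2 arrays of raised background (undetected probes more than 1 log2 unit above every other array of the area), was chosen after seeing the data.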

Additional observations from a re-analysis of the deposited data

How the results depend on the processing

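No called value of a member changed direction under the alternatives run. The count of members called was 1 in the nucleus accumbens. It was 0 with WHP in Cy3 alone, with each area fitted alone, with the replicate block, with the first scan session alone and slide as a block, with trend and robust variances, and without the pool pairs whose dye swaps were uncorrelated, and it ranged from 0 to 1 when single pool pairs were left out. In the hippocampus it was 1, and 0 with WHP in Cy5 alone, with the area fitted alone, with the replicate block, with trend and robust variances and without the uncorrelated pool pairs, ranging from 0 to 1 without single pool pairs. In the prefrontal cortex it was 0, and 1 without background subtraction, with the processed signals of the scanner and without the 2 arrays of raised background (an alternative chosen after seeing the data). In the mean it was 3, and 2 with the processed signals of the scanner and with WHP in Cy5 alone. It was 1 with the replicate block, 0 with trend and robust variances and 1 without the uncorrelated pool pairs. Without single pool pairs it ranged from 1 to 3. The cause was not tested. The count of level differences was 7, and 15 with the scanner's processed signals and with Aquantile scaling, and 17 without the 2 arrays of raised background, ranging from 4 to 14 without single pool pairs. The first session alone with slide as a block gave 0 level calls between the nucleus accumbens and the prefrontal cortex, as did the main setting.

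The pool pair numbers were not taken as pairing, because the labels do not say whether the same rats gave all areas. Deviations of same-numbered pool pairs correlated at -0.38 to 0.17 between areas. With 3 pool pairs per area these correlations cannot show whether the pools were shared. With the pool pair number as a replicate block, the mean ratios had limma adjusted p of 0.0554 for Irf7 and 0.0637 for Ifi27, and Mx2 had 0.0644 in the nucleus accumbens and 0.0725 in the hippocampus. No fit of each area alone gives a mean or a difference between areas, and the first session holds no hippocampus array. With 3 pool pairs per area, ratios of the size of Irf7 did not pass in any single area. Among the other values, 749 stayed the same, 55 no longer passed, 3 newly passed and 20 moved by more than the replicate spread. Many of the 749 passed neither in the main setting nor in the alternative, such as the ratios of Irf1, Stat2 and Irf9.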
